A study of Mus musculus with 33 samples.

Results

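The 10 genes described here encode the enzymes and regulators of de novo lipogenesis, the making of fatty acids from carbohydrate. They were taken by symbol (Fasn, Acaca, Acacb, Acly, Scd1, Elovl6, Srebf1, Me1, Mlxipl and Thrsp) from 21671 genes of a mouse liver RNA-seq table, and all 10 passed the filter on low values in both arms of the study. The study asked how MYC and β-catenin act in hepatocytes shortly after activation and in the tumours they drive. All animals were C57BL/6.

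In the short-term arm, mice aged 6 to 8 weeks received AAV8-TBG-CRE, a virus with Cre recombinase under the hepatocyte promoter TBG, and livers were taken after 4 days. The 4 groups of 5 livers were wild type, beta-cat Ex3 (Ex3, an allele whose exon 3 is removed by Cre to stabilise β-catenin), R26-lslMYC (MYC, a transgene that Cre switches on), and both alleles (MYC+Ex3). The wild-type livers also received the virus. In the tumour arm, 3 MYC nodules came from Albeta-CreERT2/R26-lslMYC mice and 3 MYC+Ex3 nodules from Albeta-CreERT2/R26-lslMYC/beta-catEx3 mice. CreERT2 is a Cre that acts only in the presence of tamoxifen or its active form, and when it was activated in these mice is not given in the sources used here. Their controls were 7 livers labelled wild type, taken 4 days after 4-hydroxytamoxifen (4-OHT). The age of the nodule-bearing mice is likewise not given, and the controls are whole livers without nodules. Age and nodule formation therefore cannot be told apart from genotype in that arm.

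De novo lipogenesis starts from citrate, which ATP-citrate lyase (Acly) splits to acetyl-CoA. Acetyl-CoA carboxylase makes malonyl-CoA from it, fatty acid synthase (Fasn) joins these units to palmitate with NADPH from malic enzyme (Me1) and other sources, and Elovl6 and Scd1 lengthen and desaturate the product. In liver the pathway is known to be switched on after feeding, by insulin through SREBP-1c (Srebf1) and by glucose through ChREBP (Mlxipl).

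The unit is RPKM, the reads of a gene divided by its length in kilobases and by a total for the library in M reads that the authors chose. Being per length, it allows levels of genes to be compared within an arm, except among the most abundant genes, where it was compressed. Depth, counted as reads in genes, was 3.75 to 7.31 M in the 20 short-term libraries and 6.65 to 9.82 M in the 13 libraries of the tumour arm. The 2 arms are on different scales and are compared only within themselves. All 10 hepatocyte markers examined (Alb, Hnf4a and others) were found in every group. By Xist and Ddx3y, males made up 2, 3, 3 and 4 of 5 livers in the wild-type, Ex3, MYC and MYC+Ex3 groups and 4 of 7 livers given 4-OHT. All 3 tumours with MYC alone and 2 of the 3 with both alleles were male. MYC liver 5 carried RNA of both genes. RNA of the epidermal keratins Krt5, Krt14 and Krt17 summed to 3.95 to 23.8 RPKM in 10 of the short-term livers and to at most 0.398 in the other 10. The livers with keratin RNA numbered 3 of 5 in each short-term group except MYC, with 1 of 5. Wild-type liver 1 held 9.95 RPKM of the adipocyte hormone Adipoq. The 6 adipocyte markers examined summed to 10.0 to 100.9 RPKM in wild-type and 8.43 to 23.6 in Ex3 livers. In MYC livers they summed to 7.22 to 41.7 RPKM and in MYC+Ex3 livers to 9.50 to 31.4.

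Most of the lipogenesis genes were among the more abundant of the liver, whereas Acacb ranked as low as 9780. In the short-term livers Scd1 ranked between 2 and 121 of all genes by RPKM, Thrsp between 14 and 1005, and Fasn between 129 and 2084. Acacb was the least abundant of the 10 by mean RPKM in each group, with 24.7 ± 9.31 RPKM (SD, n = 5) in wild-type livers against 51.2 ± 14.2 for Acaca and 290.3 ± 37.6 for Scd1. RPKM was compressed at the upper end, where no gene passed 396 RPKM in the short-term livers or 67.5 in the tumour arm. Scd1 lay near that end, as did hepatocyte markers such as Alb and, in the 4-OHT livers, Thrsp at ranks 12 to 112. The order of these genes by RPKM therefore cannot be read as an order of abundance. The 4604 to 7164 Scd1 reads in the short-term livers rose by only 0.19 on the log2 scale per log2 unit of depth, and in the tumour arm by 0.00. Differences of Scd1 between groups were therefore also fitted with a term for depth.

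Promoter windows of 250 bases before the start site were read from RefSeq (GRCm38.p6) for 9 of the 10 genes, in 13 entries. They are shown for the genes whose RNA the results turn on, with matches in capitals to 3 of the 5 sets of letters searched on both strands. These 3 were the E-box CACGTG, bound by ChREBP and also by MYC, the sterol regulatory element core TCACNCCAC, bound by SREBP, and the CCAAT box, bound by NF-Y. The downstream Mlxipl entry is chr5:135106641-135106890 on the plus strand, the upstream entry chr5:135089640-135089889 on the plus strand, the Fasn entry chr11:120824548-120824797 on the minus strand and the Acacb entry chr5:114165268-114165517 on the plus strand.
Mlxipl upstream: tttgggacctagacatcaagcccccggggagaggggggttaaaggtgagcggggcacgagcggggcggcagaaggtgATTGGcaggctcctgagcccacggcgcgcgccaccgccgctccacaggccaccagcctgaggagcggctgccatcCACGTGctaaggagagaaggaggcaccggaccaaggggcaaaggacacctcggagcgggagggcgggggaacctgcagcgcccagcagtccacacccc
Mlxipl downstream: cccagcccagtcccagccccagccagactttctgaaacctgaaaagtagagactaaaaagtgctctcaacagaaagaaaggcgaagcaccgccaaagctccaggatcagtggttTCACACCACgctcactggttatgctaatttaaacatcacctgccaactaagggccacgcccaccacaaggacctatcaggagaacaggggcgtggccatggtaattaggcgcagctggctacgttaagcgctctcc
Fasn: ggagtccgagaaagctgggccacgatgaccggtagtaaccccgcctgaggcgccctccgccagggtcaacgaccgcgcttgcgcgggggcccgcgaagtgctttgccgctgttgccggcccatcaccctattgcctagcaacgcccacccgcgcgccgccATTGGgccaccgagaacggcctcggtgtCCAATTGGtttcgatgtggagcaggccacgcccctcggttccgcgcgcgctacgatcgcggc
Acacb: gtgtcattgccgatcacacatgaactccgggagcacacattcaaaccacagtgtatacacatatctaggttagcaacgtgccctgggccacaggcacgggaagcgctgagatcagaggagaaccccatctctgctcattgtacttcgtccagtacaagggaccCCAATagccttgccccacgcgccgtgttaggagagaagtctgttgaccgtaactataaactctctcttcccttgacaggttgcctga
The E-box letters stood in 6.02% of all 32851 promoter windows and in 1 of the 13 entries. Of the 9 genes this was Mlxipl, 98 bases before its upstream start. The sterol element core stood in 1.05% of all windows and in 1 of the 13 entries, again only in Mlxipl among the 9, as TCACACCAC 136 bases before its downstream start. CCAAT, read as ATTGG on the other strand, stood in 33.8% of all windows and in 7 of the 13 entries. These entries belong to 6 of the 9 genes, among them Fasn with 3 matches, of which 2 overlap. The TCF/LEF letters CTTTGAT, read by the β-catenin partners, were in 3.21% of windows and in none of the 9 genes. The GC box GGGCGG, bound by Sp1, was in 32.7% of windows and in 5 of the 13 entries, from 4 of the 9 genes. A match is a description of letters, and a missing match says only that these letters are not in this window.

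The short-term livers were compared first. Against wild type, 2 of the 10 genes fell with MYC and 5 with MYC+Ex3, while none passed the test with Ex3 and none rose in any comparison. Acacb fell by the most in both MYC settings. Of 13688 genes tested, 5.36% were called lower and 16.9% higher with MYC, 6.18% lower and 17.9% higher with MYC+Ex3, and 0% lower and 0.132% higher with Ex3 (limma on log2(RPKM + 1), adjusted p under 0.05). The median log2 change of the 10 genes was -0.36 with MYC, -0.45 with MYC+Ex3 and -0.21 with Ex3, against 0.07, 0.05 and 0.01 for all genes tested. These comparisons share the wild-type livers and are given side by side.

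**Figure D1:**
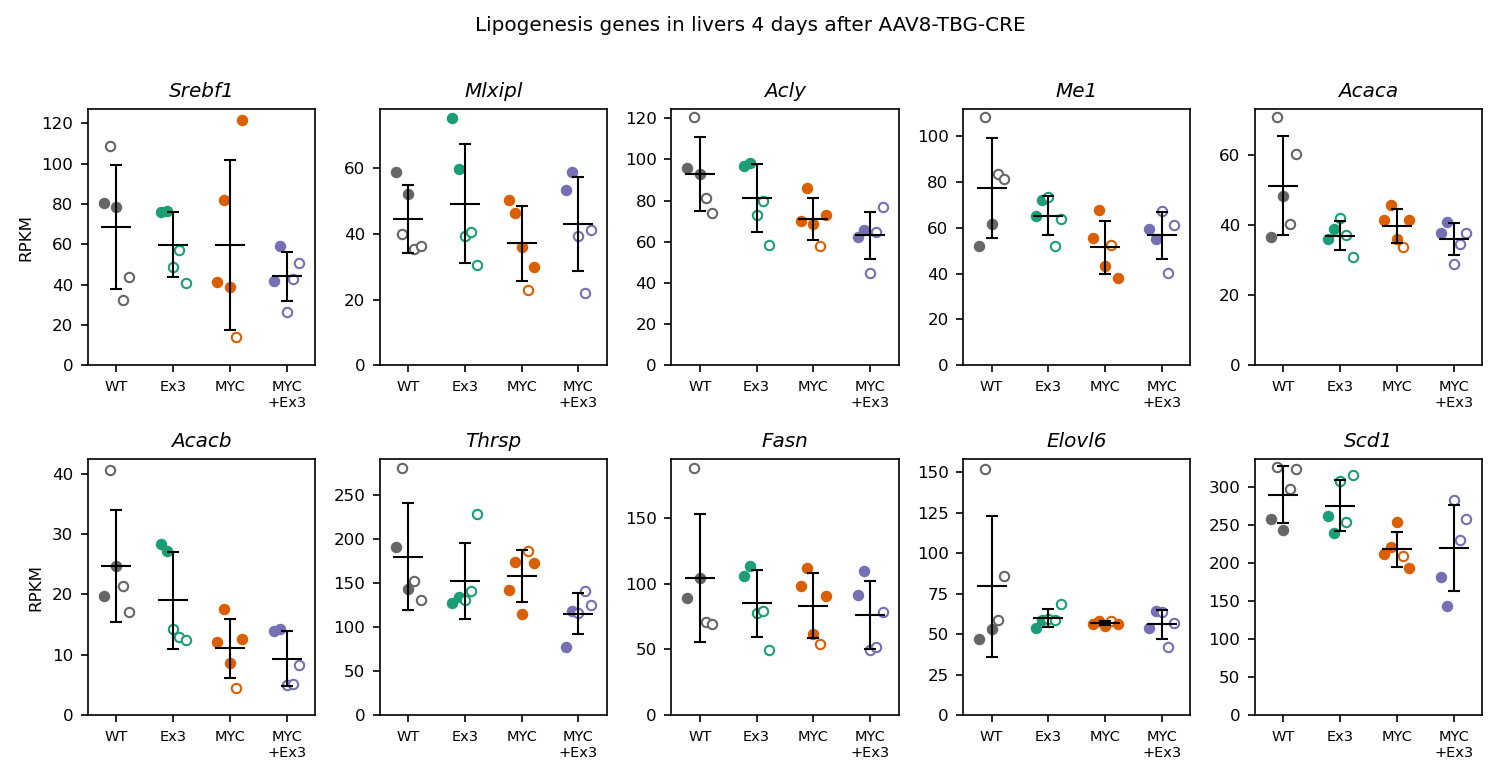
RPKM (y axis, from 0) of the 10 genes in the 20 livers taken 4 days after AAV8-TBG-CRE, 1 panel per gene and 5 livers per group (x axis). Points are livers, open where keratin RNA was present, and bars are the mean and SD. A single wild-type liver is highest for Fasn (187.9 RPKM) and Elovl6 (152.3 RPKM). For Acacb all MYC+Ex3 livers lie below the wild-type livers, and how often this holds over all genes was not counted.

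Srebf1 encodes the SREBP-1 proteins, whose 1a and 1c forms gene-level counts do not separate. Its RPKM was 80.2, 108.7, 78.3, 32.2 and 43.8 in wild-type livers 1 to 5, and 41.3, 82.1, 38.8, 14.1 and 121.5 in MYC livers 1 to 5. The MYC livers thus held both the lowest and the highest value of the 20. Neither its log2 change with MYC (-0.40 ± 0.42, SE) nor that with MYC+Ex3 (-0.55 ± 0.42) passed the test (limma adjusted p = 0.537 and 0.372). Mlxipl encodes ChREBP, which binds with its partner Mlx at carbohydrate response elements. Its RPKM ran from 35.6 to 58.8 in wild-type livers and from 22.1 to 59.0 in MYC+Ex3 livers, with a log2 change of -0.09 (95% interval -0.65 to 0.47). In MYC livers it ran from 22.9 to 50.3, with a change of -0.28 (limma adjusted p = 0.494). With a term for keratin RNA in the model, the Mlxipl change with MYC was -0.57 and passed (limma adjusted p = 0.0154).

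Acly supplies cytosolic acetyl-CoA. It measured 95.6, 120.5, 93.1, 81.0 and 73.8 RPKM in wild-type livers and 62.5, 65.9, 44.8, 64.9 and 77.0 in MYC+Ex3 livers, of which only the last lay within the wild-type range. It fell by 0.55 ± 0.16 (SE) on the log2 scale with MYC+Ex3 (limma adjusted p = 0.0161), while its change with MYC was -0.37 (limma adjusted p = 0.103). Me1, which yields NADPH, measured 51.9, 108.2, 61.7, 83.6 and 81.5 RPKM in wild-type livers and 55.4, 67.7, 43.2, 52.6 and 38.1 in MYC livers. It fell by 0.56 ± 0.183 with MYC (limma adjusted p = 0.0323), and 3 of the MYC livers lay within the wild-type range. Its change with MYC+Ex3 was -0.42 (limma adjusted p = 0.104). The call with MYC was lost without any of wild-type livers 2, 4 and 5 or MYC livers 3, 4 and 5.

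Acaca and Acacb encode the 2 acetyl-CoA carboxylases. ACC1 (Acaca) is cytosolic and supplies malonyl-CoA for synthesis, whereas ACC2 (Acacb) sits at the mitochondrial outer membrane, where malonyl-CoA restrains the entry of fatty acids for oxidation. Acacb measured 19.8, 40.6, 24.8, 21.4 and 17.1 RPKM in wild-type livers and 28.3, 27.2, 14.3, 12.9 and 12.4 in Ex3 livers. It measured 12.1, 17.6, 8.62, 4.48 and 12.5 in MYC livers and 13.9, 14.3, 5.0, 5.06 and 8.36 in MYC+Ex3 livers. All MYC+Ex3 livers, and all MYC livers except the second, lay below every wild-type liver. Acacb fell by 1.14 ± 0.344 with MYC (limma adjusted p = 0.0215) and by 1.37 ± 0.344 with MYC+Ex3 (limma adjusted p = 0.00603). Its change with Ex3 was -0.39 (95% interval -1.10 to 0.33). Acaca fell by 0.47 ± 0.151 with MYC+Ex3 (limma adjusted p = 0.0288), where mean RPKM was 51.2 ± 14.2 in wild-type and 35.9 ± 4.5 in MYC+Ex3 livers (SD, n = 5 each), and its change with MYC was -0.33 (limma adjusted p = 0.128). With Ex3 alone the Acaca change was -0.42 (95% interval -0.74 to -0.11, limma adjusted p = 0.669). Between MYC+Ex3 and Ex3 livers it was -0.04 (95% interval -0.36 to 0.27).

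Thrsp encodes Spot 14, a thyroid hormone-responsive protein that acts with its paralogue Mid1ip1 on lipogenic enzymes. It measured 191.3, 280.6, 143.7, 152.0 and 130.8 RPKM in wild-type livers and 76.8, 118.1, 116.4, 141.0 and 124.6 in MYC+Ex3 livers, where it fell by 0.61 ± 0.207 (limma adjusted p = 0.0389). In MYC livers its RPKM ran from 114.9 to 186.4 and its change was -0.15. Fasn, the synthase itself, measured 88.8, 187.9, 104.1, 71.1 and 69.0 RPKM in wild-type livers and 91.5, 110.0, 49.4, 51.6 and 78.2 in MYC+Ex3 livers. The groups overlapped, and the change of -0.41 ± 0.289 did not pass (limma adjusted p = 0.321). Elovl6, which elongates palmitate, stood at 55.0 to 58.1 RPKM in the MYC livers, a narrow range beside the 46.7 to 152.3 of the wild-type livers, and its change was -0.34 (limma adjusted p = 0.277). Scd1, the main hepatic stearoyl-CoA desaturase, measured 258.7, 326.9, 244.1, 297.8 and 324.0 RPKM in wild-type livers and 182.4, 143.6, 283.3, 230.8 and 258.9 in MYC+Ex3 livers. It fell by 0.43 ± 0.149 with MYC+Ex3 (limma adjusted p = 0.0402), and with the depth term by 0.35 (limma adjusted p = 0.0015). With MYC its change was -0.41 (limma adjusted p = 0.0557), which passed with the depth term at -0.33 (limma adjusted p = 0.00252). Scd1 reads may be shared with its paralogues Scd2 to Scd4.

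Most of the short-term calls were lost without wild-type liver 2, the highest of the 20 for Fasn, Acaca, Acacb, Acly, Elovl6, Me1, Scd1 and Thrsp. Without it 0 of the 10 genes were called with MYC, where the Acacb change was -0.95 (limma adjusted p = 0.0667), and 1, Acacb, was called with MYC+Ex3. With MYC+Ex3 the calls were also lost without other single livers: Acaca without wild-type liver 5 or MYC+Ex3 livers 3 or 4, Thrsp without wild-type liver 1 or MYC+Ex3 livers 1, 2 or 3, and Scd1 without wild-type livers 4 or 5 or MYC+Ex3 livers 1 or 2. With MYC the count was also 0 without MYC liver 4. Among males alone none of the 10 genes was called in either comparison, with Acacb at -0.97 and -1.18. The numbers in the sample titles fall into 7 series by their first 3 digits, which the labels do not explain. The series of 6 livers, which spans all 4 groups, holds none of the livers with keratin RNA. With a term for the series, chosen after the data were seen, 0 of the 10 genes were called with MYC, with Acacb at -0.68 (limma adjusted p = 0.176), and 2 with MYC+Ex3, Acacb at -1.26 (limma adjusted p = 0.0093) and Acly at -0.57 (limma adjusted p = 0.0149). In that fit 3 livers with a series to themselves, wild-type liver 2 among them, carry no weight in the group differences.

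The livers with and without keratin RNA differed in 25.9% of genes when group means were in the model, and in 5 of the 10 lipogenesis genes (limma, adjusted p under 0.05). Those with keratin RNA had lower Mlxipl (-0.73 ± 0.119, SE), Acacb (-0.77 ± 0.197), Srebf1 (-0.80 ± 0.268) and Fasn (-0.52 ± 0.188), and higher Scd1 (0.32 ± 0.087). They were also shallower, at 3.75 to 5.10 against 4.39 to 7.31 M reads, and Scd1 reads rose by only 0.19 per log2 unit of depth. The part of depth in the differences between the keratin sets was not tested. The group differences were also fitted within each set and, over all short-term livers, with a term for keratin RNA. The part of keratin RNA in the group differences was not tested. Between MYC+Ex3 and wild-type livers, Acacb was at -1.88 with keratin RNA (limma adjusted p = 0.0031) and -0.61 without it (limma adjusted p = 0.114). Acaca was at -0.71 (limma adjusted p = 0.0405) and -0.10 in the same order. Me1 passed with keratin RNA, at -0.71 (limma adjusted p = 0.0426), though not over all livers. Acly was at -0.55 in both sets, and it passed only without keratin RNA (limma adjusted p = 0.0142), as did Scd1 at -0.63 and Thrsp at -0.79. Between MYC and wild-type livers without keratin RNA, 0 of the 10 genes passed, with Acacb at -0.79 (limma adjusted p = 0.0526). With the term for keratin RNA, 3 of the 10 genes were lower with MYC. Acly, at -0.47 (limma adjusted p = 0.031), and Mlxipl, at -0.57 (limma adjusted p = 0.0154), passed there though not in the main fit. Me1, at -0.51, no longer passed (limma adjusted p = 0.056).

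Adding Ex3 to MYC was tested directly. None of the 10 genes passed between MYC+Ex3 and MYC livers, where 0% of all genes were called lower and 0.19% higher (limma, adjusted p under 0.05). An unadjusted p under 0.05 was reached by 1 of the 10, Thrsp at -0.46, beside 461 of all 13688 genes tested. The intervals were wide: that for Acacb ran from -0.95 to 0.49 and that for Fasn from -0.74 to 0.46. Adding MYC to Ex3 lowered 1 of the 10 genes, Acacb, by 0.98 ± 0.344 (limma adjusted p = 0.0467), beside a background of 4.7% called lower and 16.4% higher. That call ended under 5 of the 13 alternatives and without any of 12 single livers. The interaction of MYC and Ex3 passed for 0 of the 10 genes and for 0% of all genes. At an unadjusted p under 0.05 there were 0 of the 10, beside 132 of all 13688 genes tested. In the authors' deposited table, 4 of the 10 genes were lower with MYC, 5 with MYC+Ex3, and 0 in the Ex3 and the MYC+Ex3 against MYC comparisons. Of its 21671 genes, that table calls 2793, 3813, 98 and 37 in the same order, counting both directions (adjusted p under 0.05).

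The tumours were compared with 4-OHT livers next. In MYC tumours 6 of the 10 genes fell and in MYC+Ex3 tumours 7, none rose, and Acacb again fell by the most. Of 11854 genes tested, 13.7% were called lower and 36.2% higher in MYC tumours, and 18.4% lower and 42.3% higher in MYC+Ex3 tumours (limma, adjusted p under 0.05). The median of all genes lay above 0 in these comparisons, at 0.19 and 0.23, against -0.55 and -0.67 for the 10 genes. After rescaling each library by its median ratio, 10 and 9 of the 10 genes were lower. Rescaling also raised the lower calls over all genes, from 1621 to 2790 and from 2178 to 3246, with 11854 genes tested before and 11868 after. Both comparisons share the 7 4-OHT livers.

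**Figure D2:**
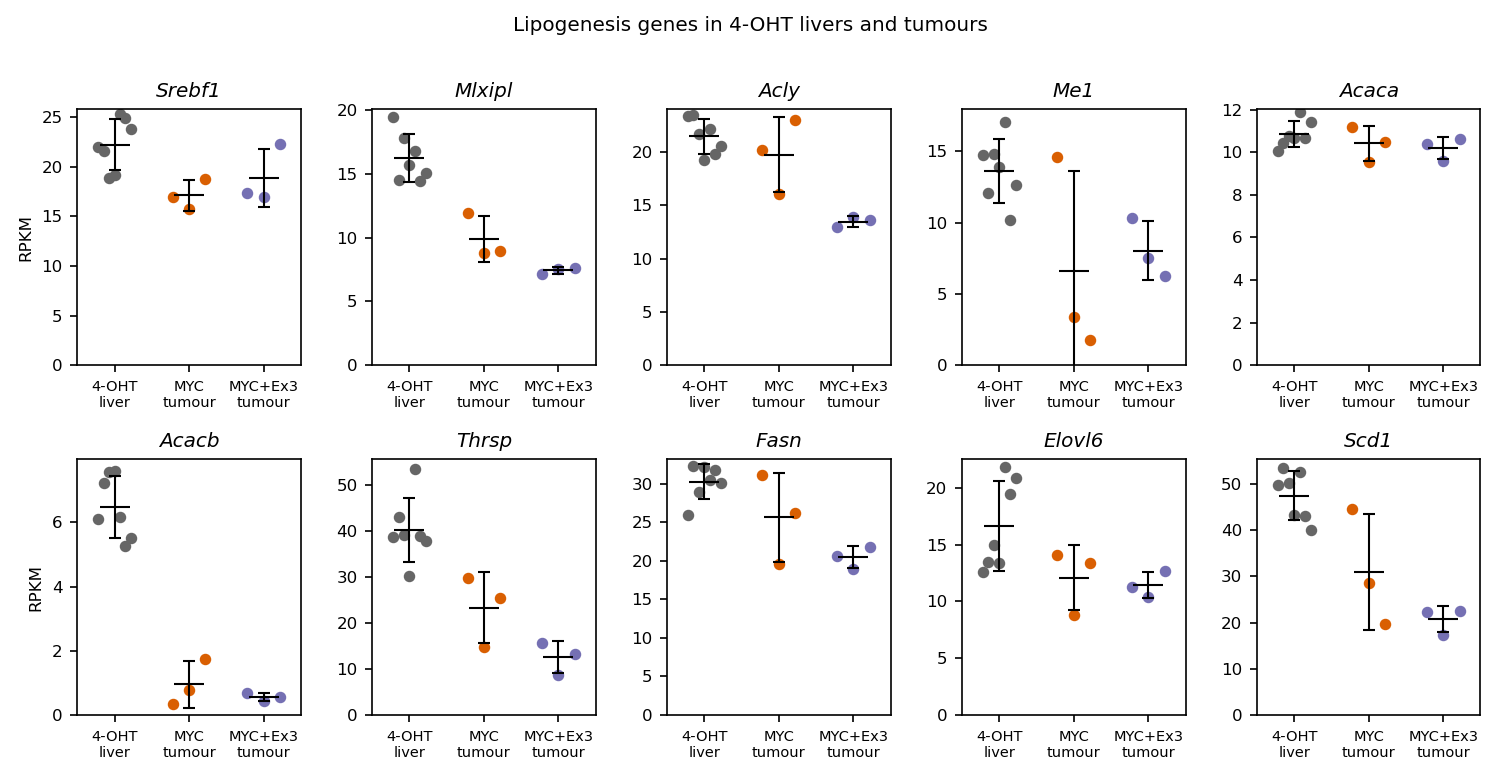
RPKM (y axis, from 0) of the 10 genes in 7 4-OHT livers, 3 MYC tumours and 3 MYC+Ex3 tumours, 1 panel per gene. Points are libraries and bars are the mean and SD; Acacb lies between 5.27 and 7.60 RPKM in the livers and at or below 1.75 RPKM in the 6 tumours, whereas Acaca stays between 9.56 and 11.9 RPKM throughout.

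Mlxipl ranged from 14.5 to 19.5 RPKM in the 7 livers (median 15.7). It measured 12.0, 8.78 and 8.98 RPKM in MYC tumours and 7.13, 7.55 and 7.64 in MYC+Ex3 tumours, so all 6 tumours lay below all livers. It fell by 0.67 ± 0.12 (SE) in MYC tumours (limma adjusted p = 0.00048) and by 1.03 ± 0.12 in MYC+Ex3 tumours (limma adjusted p = 7.21e-06). Srebf1 ranged from 18.8 to 25.3 RPKM in the livers (median 21.9), and measured 16.9, 15.7 and 18.8 in MYC tumours and 17.4, 16.9 and 22.3 in MYC+Ex3 tumours. It fell by 0.35 ± 0.126 in MYC tumours (limma adjusted p = 0.0309), a call lost without any of 4-OHT livers 5, 6 and 7 or MYC tumours 1 and 2. The 3 livers of the title set S15 had more Srebf1 (23.8 to 25.3 RPKM) than the 4 of set S14 (18.8 to 21.9), and against set S14 alone the change was -0.24 (limma adjusted p = 0.187).

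Acly ranged from 19.2 to 23.4 RPKM in the livers (median 21.7) and measured 20.2, 16.0 and 23.0 in MYC tumours, which overlapped them. In MYC+Ex3 tumours it measured 12.9, 13.9 and 13.6 RPKM, below all livers and all MYC tumours, and it fell by 0.63 ± 0.115 (limma adjusted p = 0.000301). Me1 ranged from 10.2 to 17.1 RPKM in the livers (median 13.9). The MYC tumours differed widely among themselves for this gene, with 14.6 RPKM in tumour 1, within the liver range, and 3.39 and 1.76 in tumours 2 and 3. It fell by 1.33 ± 0.368 in MYC tumours (limma adjusted p = 0.00823), and the call was lost without MYC tumour 3 and against set S15 alone (limma adjusted p = 0.0739). In MYC+Ex3 tumours Me1 was 10.3, 7.49 and 6.28 RPKM and its change of -0.71 did not pass (limma adjusted p = 0.111), but it passed when only those 2 groups were fitted (limma adjusted p = 0.00145).

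Acacb ranged from 5.27 to 7.60 RPKM in the livers (median 6.17), from 1542 to 2437 reads. It measured 0.329, 0.770 and 1.75 RPKM in MYC tumours and 0.676, 0.438 and 0.552 in MYC+Ex3 tumours. The 6 tumours held 69 to 569 reads, and none came near the lowest liver. Mean RPKM was 6.83 times lower in MYC tumours and 11.7 times lower in MYC+Ex3 tumours than in the livers. On the log2(RPKM + 1) scale, which understates changes of low values, Acacb fell by 2.0 ± 0.18 (limma adjusted p = 2.39e-06) and by 2.26 ± 0.18 (limma adjusted p = 3.25e-07). Both calls held under every alternative tried. Acaca measured 11.2, 9.56 and 10.5 RPKM in MYC tumours and 10.4, 9.60 and 10.6 in MYC+Ex3 tumours, within or just below the liver range of 10.1 to 11.9. Its change was -0.06 (95% interval -0.25 to 0.14) in MYC tumours and -0.08 (-0.27 to 0.11) in MYC+Ex3 tumours as deposited. After rescaling it was -0.26 and -0.29 and passed in both (limma adjusted p = 0.0281 and 0.0131).

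The 2 carboxylases were set against each other within each library, a ratio free of the library's scaling and chosen after the values were seen. It is not free of depth. With group means removed, Acacb reads rose by 2.66 per log2 unit of depth in the short-term livers and 3.27 in the tumour arm. Acaca reads rose by 1.22 and 1.04. Acacb RPKM was 28.4 to 57.4% of Acaca RPKM in wild-type short-term livers, 34.0 to 78.8% with Ex3, 13.3 to 38.6% with MYC and 14.7 to 37.0% with MYC+Ex3. In the tumour arm it was 48.1 to 71.2% in 4-OHT livers, 2.93, 8.06 and 16.7% in MYC tumours, and 6.5, 4.56 and 5.21% in MYC+Ex3 tumours. The tumours did not overlap their controls, and the short-term groups did. Since the pair was picked for this difference, the ratio is given as a description, with no test.

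**Figure D3:**
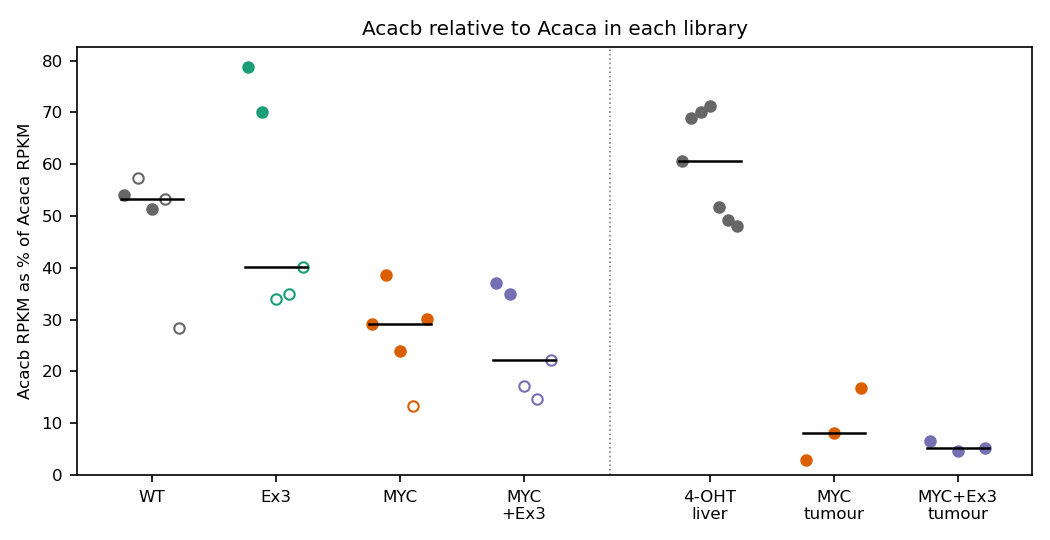
Acacb RPKM as a percentage of Acaca RPKM (y axis, from 0) in each of the 33 libraries, by group (x axis), with short-term livers left of the dotted line and the tumour arm right of it. Points are libraries, open where keratin RNA was present, and lines are group medians; the 6 tumours lie at 2.93 to 16.7%, below the 48.1 to 71.2% of the 4-OHT livers.

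Thrsp ranged from 30.2 to 53.5 RPKM in the livers (median 38.9), and measured 29.9, 14.8 and 25.4 in MYC tumours and 15.7, 8.77 and 13.3 in MYC+Ex3 tumours. All 6 tumours lay below all livers, MYC tumour 1 by the least. It fell by 0.80 ± 0.214 in MYC tumours (limma adjusted p = 0.00711) and by 1.62 ± 0.214 in MYC+Ex3 tumours (limma adjusted p = 2.07e-05). The first call was lost without MYC tumour 2. Fasn ranged from 25.9 to 32.3 RPKM in the livers (median 30.5), measured 31.1, 19.6 and 26.1 in MYC tumours, and 20.7, 18.9 and 21.8 in MYC+Ex3 tumours. MYC tumour 2 and all 3 MYC+Ex3 tumours lay below all livers. In MYC+Ex3 tumours Fasn fell by 0.54 ± 0.13 (limma adjusted p = 0.00249).

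Elovl6 ranged from 12.6 to 21.9 RPKM in the livers (median 15), with 12.6 to 15 in set S14 and 19.5 to 21.9 in set S15. In MYC+Ex3 tumours it measured 11.3, 10.4 and 12.7 RPKM and fell by 0.48 ± 0.188 (limma adjusted p = 0.041). Against set S14 alone the change was -0.23 (limma adjusted p = 0.248), and the call was lost without any single S15 liver, without any single MYC+Ex3 tumour and with the depth term (limma adjusted p = 0.0825). Scd1 ranged from 39.9 to 53.5 RPKM in the livers (median 49.6) and measured 44.5, 28.6 and 19.7 in MYC tumours and 22.2, 17.4 and 22.5 in MYC+Ex3 tumours. By RPKM, MYC tumour 1 lay within the liver range and the other 5 tumours below it. By reads, MYC tumour 1 also lay below the livers, with 5137 against 7213 to 7622. Scd1 fell by 0.67 ± 0.191 in MYC tumours (limma adjusted p = 0.0102), and by 1.16 ± 0.191 in MYC+Ex3 tumours (limma adjusted p = 0.000134). With the depth term the falls were 0.51 and 0.97 (limma adjusted p = 0.0139 and 0.000165). The call in MYC tumours was lost without tumour 3, among males (limma adjusted p = 0.0534) and against set S15 alone (limma adjusted p = 0.0993).

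MYC tumour 1 stood apart from the other MYC tumours for Me1, where it was at liver levels, and had the lowest Acacb of all libraries. For Scd1 it was within the liver range by RPKM only. Its 5137 Scd1 reads were close to the 5371 of MYC tumour 2 and below the 7213 to 7622 of the livers. MYC tumour 1 was also the shallowest tumour, with 6.67 against 7.86 to 9.82 M reads. Macrophage markers summed to 31.2 to 105 RPKM in MYC tumours and 42.7 to 54.2 in MYC+Ex3 tumours, against 103 to 142 in 4-OHT livers, and 7 of 8 were lower in each tumour group. Endothelial markers summed to 24.0 to 42.9 and 27.4 to 32.4 against 46.4 to 79.3 RPKM, and 5 of 7 were lower in each. Stellate and fibroblast markers summed to 18.2 to 35.9 and 18.5 to 23.7 against 31.7 to 40.8 RPKM. Of those 7, 3 were lower and 2 higher in MYC tumours, and 5 lower and 1 higher in MYC+Ex3 tumours. The 10 hepatocyte markers summed to 312 to 502 RPKM in MYC tumours and 288 to 373 in MYC+Ex3 tumours against 356 to 481, and 0 and 4 of them were lower. Several stood at the compressed upper end, such as Alb at 48.2 and Apoa1 at 51.0 mean RPKM in 4-OHT livers, so these counts do not show that hepatocyte RNA stayed level. The part of this change in cell makeup in the results was not tested, and in bulk tissue fewer cells of a type and less RNA per cell cannot be told apart.

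**Figure D4:**
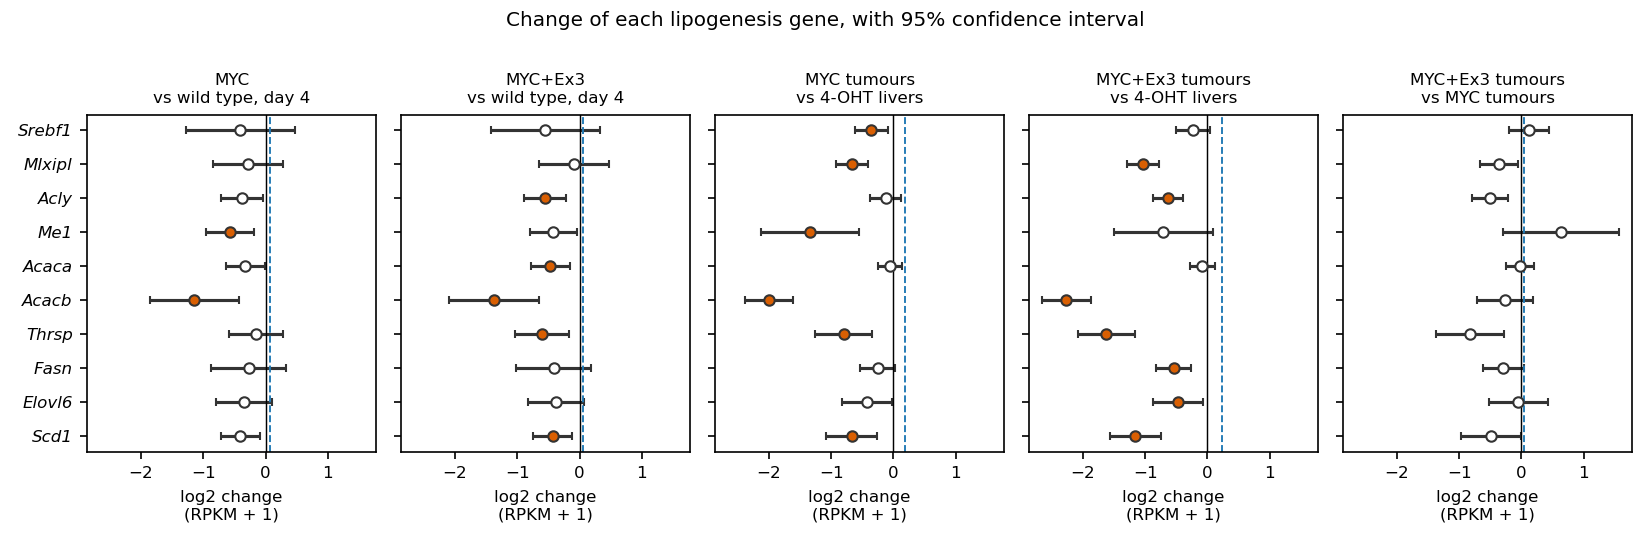
Change of each of the 10 genes (rows) on the log2(RPKM + 1) scale (x axis) in 5 comparisons (panels), with 95% confidence intervals from limma. Filled points passed an adjusted p of 0.05, the solid line is 0 and the dashed line is the median of all genes tested; Acacb is farthest left in the first 4 panels, and no gene passes in the fifth.

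MYC+Ex3 tumours were set directly against MYC tumours. None of the 10 genes passed, beside 2.1% of all genes called lower and 2.02% higher (limma, adjusted p under 0.05). An unadjusted p under 0.05 was reached by 4 of the 10, beside 2089 of all 11854 genes tested. Acly lay closest, at -0.51 ± 0.136 (limma adjusted p = 0.0524). It passed with a pseudocount of 0.1 (limma adjusted p = 0.0484), after rescaling (0.0184) and with a depth term (0.0412), and was the only one of the 10 that the authors' deposited table gives as lower. Thrsp was at -0.82 ± 0.253 (limma adjusted p = 0.09), and Mlxipl at -0.36 ± 0.142 (limma adjusted p = 0.194). Me1 pointed the other way, at 0.63 (95% interval -0.30 to 1.56), with MYC tumour 1 among its MYC values. Without that tumour it was higher by 1.35 (limma adjusted p = 0.00349). The authors' deposited table gives 9 of the 10 genes as lower in MYC tumours, with no adjusted p for Me1, and 10 in MYC+Ex3 tumours. Of its 21671 genes, that table calls 6922 and 10091 in these comparisons and 615 between the tumours, counting both directions (adjusted p under 0.05). Its log2 changes for Acacb are -2.81 and -3.73.

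Genes around the pathway did not all move with it. The lists are read beside the shares of all genes called, which were 16.9% higher and 5.36% lower with MYC in the short term, 36.2% and 13.7% in MYC tumours, and 42.3% and 18.4% in MYC+Ex3 tumours (limma, adjusted p under 0.05). Of 12 genes of carbon and NADPH supply, 2 (16.7%) were higher and 1 (8.33%) lower with MYC in the short term, and 3 (25%) higher and 2 (16.7%) lower in MYC+Ex3 tumours. The higher share was near that of all genes in the first and below it in the second. The NADPH-yielding enzyme Pgd rose by 0.85 ± 0.258 (SE) in MYC livers, from 19.3 to 37.0 mean RPKM, and by 0.66 ± 0.161 in MYC+Ex3 tumours. G6pdx, the first enzyme of the same pentose phosphate pathway, rose by 1.15 ± 0.358 in MYC+Ex3 tumours, from 5.18 to 12.7 mean RPKM. Acss2, which makes acetyl-CoA from acetate, fell by 1.02 ± 0.211 in MYC livers, from 42.9 to 21.8 mean RPKM, and by 1.35 ± 0.176 in MYC+Ex3 tumours.

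Of 11 genes of elongation and desaturation, 0 were higher and 2 (18.2%) lower with MYC in the short term, 1 (9.09%) higher and 2 (18.2%) lower in MYC tumours, and 1 (9.09%) higher and 3 (27.3%) lower in MYC+Ex3 tumours, where all genes gave 13.7% and 18.4% lower. The gene that rose was Scd2, a paralogue of Scd1 that is low in adult liver. It rose by 2.89 ± 0.155 in MYC tumours and 3.04 ± 0.155 in MYC+Ex3 tumours, from 2.86 mean RPKM in 4-OHT livers to 27.5 and 30.6, while Scd1 fell. In the tumours the mean RPKM of Scd2 thus came close to or above that of Scd1, at 30.9 and 20.7, although compression limits the Scd1 values. Elovl5 and Fads1, of polyunsaturated fatty acid synthesis, fell by 0.65 ± 0.137 and 0.88 ± 0.235 in MYC livers.

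Of 16 genes of SREBP, LXR and ChREBP control, 1 (6.25%) was higher and 3 (18.8%) lower with MYC in the short term, 2 (12.5%) higher and 3 (18.8%) lower in MYC tumours, and 3 (18.8%) higher and 4 (25%) lower in MYC+Ex3 tumours. The higher shares lay below those of all genes in each (16.9%, 36.2% and 42.3%). Mbtps2, the site-2 protease that releases active SREBP, rose by 0.67 ± 0.181 in MYC livers and by 1.11 ± 0.117 in MYC+Ex3 tumours. Insig2, which holds SREBP back in the endoplasmic reticulum, fell by 1.33 ± 0.293 and 1.63 ± 0.293 in the MYC and MYC+Ex3 tumours. Txnip, a glucose-induced ChREBP target, fell by 0.70 ± 0.206 in MYC livers. Mid1ip1, the paralogue of Thrsp, fell by 0.70 ± 0.143 in MYC tumours and 0.80 ± 0.143 in MYC+Ex3 tumours.

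Of 14 genes of triglyceride assembly tested, 0 were higher and 2 lower with MYC in the short term (Gpam, -0.57, and Acsl1, -0.56), 1 higher and 2 (14.3%) lower in MYC tumours, and 2 higher and 1 (7.14%) lower in MYC+Ex3 tumours. The lower shares were near and below the 13.7% and 18.4% of all genes in the tumours. Lpin1, a phosphatidate phosphatase, fell by 1.51 ± 0.48 in MYC tumours. Acsl4, an acyl-CoA synthetase with a preference for arachidonate, rose by 0.84 ± 0.213 between MYC and MYC+Ex3 tumours. It was the only gene of these lists to pass in that comparison, where 2.02% of all genes were called higher. Of 13 genes of lipid droplets and lipolysis tested, 0 were higher and 2 (15.4%) lower with MYC in the short term, 2 (15.4%) higher and 2 (15.4%) lower in MYC tumours, and 3 (23.1%) higher and 2 (15.4%) lower in MYC+Ex3 tumours, so that the lower share in tumours was near that of all genes. G0s2, an inhibitor of the lipase ATGL, fell by 0.71 ± 0.199 in MYC livers and 0.92 ± 0.199 in MYC+Ex3 livers. Lipe, the hormone-sensitive lipase, fell by 0.82 ± 0.125 in MYC tumours and 1.01 ± 0.125 in MYC+Ex3 tumours. The droplet coat proteins Plin3 and Plin5 rose by 0.58 ± 0.137 and 0.59 ± 0.218 in MYC+Ex3 tumours, and Plin4 rose by 0.96 ± 0.329 between Ex3 and MYC+Ex3 livers.

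Among libraries of a group, Fasn was compared with its 2 regulators after group means were removed, in 4 relations. In the 20 short-term livers Fasn and Srebf1 gave Pearson r = 0.73 (permutation p = 0.00013, adjusted 0.00052) and Spearman rho = 0.82. Without MYC livers 4 and 5, the farthest on the Srebf1 axis, r was 0.82. Within the livers with keratin RNA that share a group r was 0.91 (n = 9, permutation p = 0.0141), and without keratin RNA 0.50 (n = 10, permutation p = 0.495). It passed the threshold in the first set alone, and the difference between the sets was not tested. Fasn and Mlxipl gave r = 0.67 and rho = 0.69 (permutation p = 0.00234 and 0.00256, adjusted 0.00468 and 0.00512), and r = 0.38 and 0.46 within the sets without and with keratin RNA, neither past the threshold. Without the 2 farthest livers r was 0.63. In the 13 libraries of the tumour arm r was 0.30 with Srebf1 and 0.13 with Mlxipl (permutation p = 0.292 and 0.834). Fasn, Srebf1 and Mlxipl reads also rose faster than depth in the short-term livers, by 2.16, 2.72 and 1.96 per log2 unit.

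**Figure D5:**
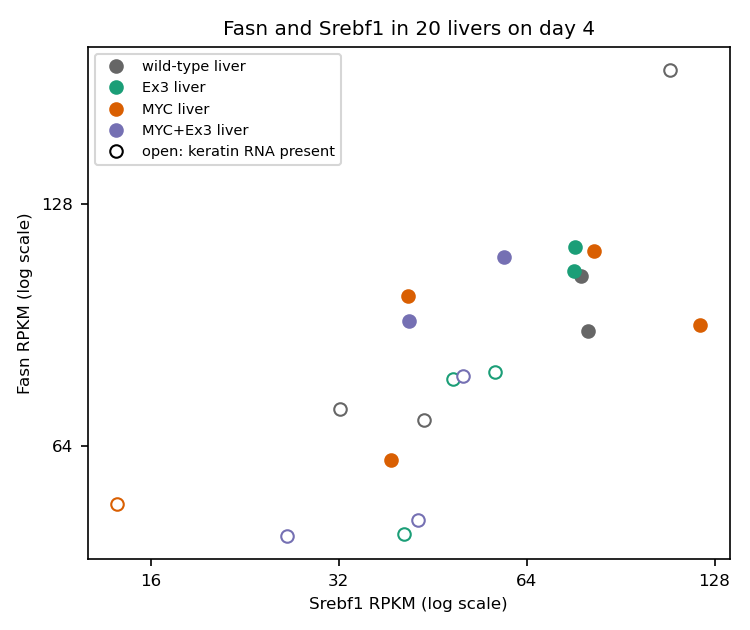
Fasn RPKM (y axis, log scale) against Srebf1 RPKM (x axis, log scale) in the 20 short-term livers, coloured by group, with open points where keratin RNA was present. Most livers with keratin RNA lie at low values of both genes, and wild-type liver 2 lies at the top with 187.9 RPKM of Fasn and 108.7 of Srebf1.

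The 10 genes did not vary as a single block. As a description, the median r over their 45 pairs was 0.28 in the short-term livers and 0.31 in the tumour arm, with group means removed. Fasn and Acacb were the closest pair in the short-term livers (r = 0.91) and Acaca and Elovl6 in the tumour arm (r = 0.87). Scd1 and Mlxipl ran most opposed in the short-term livers (r = -0.48), and Acacb and Me1 in the tumour arm (r = -0.64). These libraries share depth and the keratin sets, which move the same genes.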

How the data were processed

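Total RNA of 33 mouse livers and liver nodules was sequenced with TruSeq stranded libraries on an Illumina NovaSeq or another Illumina instrument, per the labels' protocols. Per the submitters' processing notes, the build was mm9 and the tools named were TopHat2 2.0.8, SAMtools, featureCounts 1.4.5-p1 and DESeq2. The authors deposited RPKM per library, with log2 fold changes and adjusted p-values of their own comparisons, used here only side by side. No column lacked a sample (0). Within each gene with reads, RPKM were whole multiples of 1 read (tolerance 0.01) in 100% of 20485 genes, which gave the reads behind each value.

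The comparisons were tested with limma 3.58.1 (R 4.3.3) on log2(RPKM + 1), an empirical Bayes trend and Benjamini-Hochberg adjustment over all genes tested, two-sided, called at an adjusted p under 0.05. Genes were tested at RPKM of at least 1 in at least 3 libraries. The 20 short-term livers and the 13 libraries of the tumour arm were fitted separately, and the fit was tested on simulated data. Replicate numbers follow the order of the records. The labels do not say that libraries of a group came from separate animals, so p-values measure the spread between these samples. A library counted as keratin-bearing when Krt5, Krt14 and Krt17 summed to over 1 RPKM, and as female when Xist passed 10 RPKM.

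Correlations used 100000 permutations within groups, and no test was made on the carboxylase ratio. Named are all 10 members, and from each pathway list some of the called genes that were among the 2 largest changes of a direction in a comparison. Promoter letters came from RefSeq (GRCm38.p6), a later build than that of the files, and were not joined to them by position. The members and lists were chosen with earlier results of these data known. The alternatives were another pseudocount, filters, scaling, covariates and weights, subsets of the libraries and each library left out. The depth and title series terms were added after the data were seen.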

Additional observations from a re-analysis of the deposited data

Results flagged for a closer look

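Of the 50 combinations of a lipogenesis gene with a group of 5 or 7 livers, 1 held a value far from the rest of its group. Thrsp in Ex3 liver 5 was 228.178 RPKM, while the other 4 Ex3 livers lay between 127.2 and 141.3 RPKM, and the gap made up 0.861 of the group's range (Dixon's critical value 0.71 for 5 samples). Chance flags about 1 in 20 such groups. That liver held keratin RNA, at 14.7 RPKM summed over Krt5, Krt14 and Krt17, and had the lowest Fasn (49.7 RPKM) and Acly (58.6 RPKM) of its group.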

How the results depend on the processing

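No gene among the 10 reversed a called change in any of 1049 refits of the 90 gene results; 42 results that were not called changed sign at least once. Both Acacb falls in tumours were called throughout. The number of the 10 genes called (all lower, except Me1 higher between the tumours without MYC tumour 1) moved as follows. For MYC against wild type (2) it was 4 after rescaling, 4 with the depth term, 1 with sample weights, and 0 in males only, without keratin RNA and with the title series term. With a keratin term it was 3, where Acly and Mlxipl were gained and Me1 was lost. For MYC+Ex3 against wild type (5) it was 3 with no filter, 3 with a sex covariate, 3 within each keratin set, 2 with only the groups compared, 2 with the series term and 0 in males. For MYC+Ex3 against Ex3 (1) it was 3 with weights, 3 without keratin RNA, 3 with the depth term, 2 after rescaling, 2 with a keratin term or the series term, and 0 with no filter, a sex covariate, males only or keratin RNA. For MYC tumours (6) it was 10 after rescaling, and for MYC+Ex3 against MYC tumours (0) it was 1 with a pseudocount of 0.1, after rescaling and with the depth term. Leaving out each library gave 0 to 3, 1 to 5 and 0 to 2 in the first 3 comparisons, 4 to 7 in MYC tumours, 6 to 8 in MYC+Ex3 tumours, 0 to 2 between the tumours, and 0 to 0 for Ex3, MYC+Ex3 against MYC and the interaction. For the correlations of Fasn it gave r from 0.71 to 0.80 with Srebf1 and 0.61 to 0.83 with Mlxipl in the short-term livers, and 0.14 to 0.42 and -0.52 to 0.47 in the tumour arm. Within the keratin sets r with Srebf1 was 0.50 without keratin RNA, and r with Mlxipl 0.38 and 0.46. The causes were not tested, but males only and the keratin sets have fewer libraries.

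Counts over all genes moved by more than 1.5 times in these fits. For Ex3 (18) they were 31 with a sex covariate, 62 with weights, 0 in males and 2 in each keratin set and with the series term. For MYC+Ex3 against MYC (26) they were 11 with a pseudocount of 0.1, 10 with no filter or only the groups compared, 0 in males, 78 with weights, 6 without keratin RNA and 3 with the series term. For MYC (3047) they were 1507 in males, 1249 without keratin RNA and 1668 with the series term. For MYC+Ex3 (3301) they were 1686 in males and 6416 with weights. For MYC+Ex3 against Ex3 (2893) they were 6707 with weights and 1668 with keratin RNA. At an RPKM filter of 5 they were 3636 for MYC tumours (5907), 4278 for MYC+Ex3 tumours (7189) and 240 between them (489). In males they were 4638 and 88 for the last 2, and between the tumours 70 with only the groups compared and 311 with weights. Rescaling also changed the split of all genes in MYC tumours from 4286 higher and 1621 lower to 3196 and 2790, in MYC+Ex3 tumours from 5011 and 2178 to 3999 and 3246, in MYC livers from 2313 and 734 to 1882 and 1302, in MYC+Ex3 livers against wild type from 2455 and 846 to 2050 and 1302, and against Ex3 from 2249 and 644 to 1941 and 956. No paired analysis was possible because the replicate numbers only name the samples in record order; the title series term is the nearest fit. Fits among livers with keratin RNA were not run for comparisons with MYC livers, which have 1 such library. Scd1, at the compressed upper end, is limited by that compression, and Acacb in tumours by its 69 to 569 reads. Thrsp in the 4-OHT livers, at ranks 12 to 112, may be limited by compression too. Its reads rose by 0.52 per log2 unit of depth in the tumour arm.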

Other observations

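As a description, all tested genes other than the 10 lipogenesis genes were ranked within each arm. The ranking was by how closely they followed the mean of the 10, with group means removed. In the 20 short-term livers, over 13678 genes, the closest were BC048671 (r = 0.83), Pdk2 (r = 0.81), 1700067K01Rik (r = 0.81), Aco1 (r = 0.80) and Smoc1 (r = 0.78). Pdk2, a kinase that restrains pyruvate dehydrogenase, ran from 4.47 to 26.3 RPKM, and Aco1, the cytosolic aconitase, from 51.9 to 83.1 RPKM. In the 13 libraries of the tumour arm, over 11844 genes, they were Epb4.1l4b, Sirt2, Mfap1b, Arfgap1 and Snord95, with r from 0.91 to 0.93. Different genes led in each arm, and the libraries share depth and, in the short-term livers, the keratin sets.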
